A study of Mus musculus with 4 samples.

Results

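Zfp genes encode zinc finger proteins, and the solitary ones are those that stand apart from the large Zfp gene clusters of the mouse genome. They were taken as protein-coding genes on chromosomes 1 to 19 whose symbol is Zfp, a number and at most 1 letter, with no other such gene within 100 kb of the body. Of 386 genes of this pattern among 20665 protein-coding genes, 164 were solitary and 222 clustered. The rule itself uses no measured value. The neighbours were judged by symbol alone, and 42 of the 164 had a protein-coding gene with a predicted-gene symbol (Gm or Rik) within 100 kb, whose protein the gene table used here does not describe. Zfp715 and Zfp936, 104.4 kb apart, lay just beyond the 100 kb limit and counted as solitary. Zfp605 and Zfp932, 97.8 kb apart, lay just within it and counted as clustered.

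Most Zfp proteins read DNA through arrays of C2H2 fingers, small loops that each hold a zinc ion with cysteines and histidines. Many carry a KRAB domain that binds Trim28 (KAP1), which brings the methyltransferase Setdb1 and so H3K9me3, the trimethylated lysine 9 of histone H3, a mark of heterochromatin. In mammals the bodies of clustered zinc finger genes, above all their finger-coding 3′ ends, are themselves a known place of this mark.

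H3K9me3 was mapped by native ChIP-seq, on chromatin cut with micrococcal nuclease and not cross-linked, in C57BL/6 CD8+ T cells of wild-type genotype. One library was made on day 3 from cells activated through CD3 and CD28 in the presence of IL-2 (interleukin-2), a T cell growth factor, and one on day 0 from naive cells. Each day is a single ChIP library, and the 2 input libraries were not analysed here. The sources used here do not give the number of mice.

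The data are the authors' lists of significant islands, which are runs of enriched windows. They hold 47553 islands with 10423178 reads on day 3 and 19989 islands with 3402787 reads on day 0. Having an island means here that 1 bp or more of the gene body is covered. With no replicate, each difference between days is one between 2 libraries, was not tested, and has no replicate check. Read density, not corrected for depth, was no lower than 34.1 reads per kb in any day 3 island and no lower than 23.6 in any day 0 island, so an island listed on 1 day only does not by itself show gain or loss of the mark. The absence of an island says only that nothing there passed the authors' threshold. Intervals are exact (Clopper-Pearson) 95% intervals for shares of genes and exact 95% Poisson intervals for reads, and cover counting error only. The T cell marker genes Cd3e, Cd3d, Cd3g, Cd8a, Cd8b1, Lck, Tcf7 and Ccr7 had no island on either day, and a list of islands cannot show which cell types were present. Of 7 marker genes of other blood cells, Ms4a1 and Adgre1 had an island on day 3 and Cd4 on day 0.

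Few promoters of solitary Zfp genes touched an island, as in protein-coding genes at large. A promoter window of 300 bases (250 before and 50 after the annotated start nearest to the outer 5′ end of the gene) was found for 132 members in the RefSeq table of build GRCm38.p6 (mm10). On day 3, 1 of the 132 windows touched an island, or 0.758%, against 3.06% of 16457 windows of protein-coding genes. On day 0, 3 did, or 2.27%, against 1.84%. A window is far shorter than a gene body, so the shares of windows and of bodies with an island are not compared. The 4 windows that touched an island are shown first. They belong to Zfp873 on day 3 (chr10:82047873-82048172, plus strand, 128 of its bases covered), and to Zfp217 (chr2:170142626-170142925, minus strand), Zfp691 (chr4:119174146-119174445, minus strand) and Zfp945 (chr17:22867085-22867384, minus strand), which were covered in full on day 0. The Zfp217 window lies at a start inside the gene, whose outer 5′ end is at 170151677. The Zfp691 island held 29.3 reads per kb, below every day 3 island. The Zfp945 island (22866801 to 22873000) overlaps a day 3 island that starts at 22870801, outside the gene. Each is printed 5′ to 3′ with CpG dinucleotides in capitals, since CpG-rich promoters are usually active and free of heterochromatin.
Zfp873: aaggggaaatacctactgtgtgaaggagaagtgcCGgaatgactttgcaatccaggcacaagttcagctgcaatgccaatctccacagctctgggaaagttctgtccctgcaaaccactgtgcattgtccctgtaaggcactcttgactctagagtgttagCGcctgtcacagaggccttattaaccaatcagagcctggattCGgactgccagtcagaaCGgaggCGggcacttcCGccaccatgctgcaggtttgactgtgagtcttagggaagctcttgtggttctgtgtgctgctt
Zfp217: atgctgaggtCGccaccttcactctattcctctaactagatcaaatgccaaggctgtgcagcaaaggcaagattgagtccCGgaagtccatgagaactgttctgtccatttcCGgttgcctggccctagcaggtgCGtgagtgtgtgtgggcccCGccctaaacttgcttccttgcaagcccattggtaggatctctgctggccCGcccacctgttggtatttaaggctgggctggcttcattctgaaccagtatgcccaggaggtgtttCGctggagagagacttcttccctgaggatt
Zfp691: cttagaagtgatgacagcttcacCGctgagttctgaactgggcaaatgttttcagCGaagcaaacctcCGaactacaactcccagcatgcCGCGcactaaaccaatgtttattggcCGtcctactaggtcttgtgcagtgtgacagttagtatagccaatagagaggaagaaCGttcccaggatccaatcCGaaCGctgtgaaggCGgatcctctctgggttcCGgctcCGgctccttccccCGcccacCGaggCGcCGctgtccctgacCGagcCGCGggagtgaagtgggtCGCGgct
Zfp945: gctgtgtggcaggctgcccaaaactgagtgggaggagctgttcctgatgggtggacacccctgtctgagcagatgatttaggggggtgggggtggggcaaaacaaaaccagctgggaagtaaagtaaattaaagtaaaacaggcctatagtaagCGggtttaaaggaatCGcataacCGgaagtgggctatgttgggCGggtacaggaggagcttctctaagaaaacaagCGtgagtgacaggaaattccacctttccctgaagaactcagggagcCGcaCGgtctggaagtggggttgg

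Shown beside them are windows of genes whose bodies were covered most on day 3 and whose start lay outside any island. These were picked by body coverage and do not stand for all windows without an island. A link between CpG content and islands was not tested. The windows of Zfp770 (chr2:114201383-114201682, minus strand), Zfp280d (chr9:72274638-72274937, plus strand) and Zfp281 (chr1:136624651-136624950, plus strand) are those of the 3 members with the highest covered share on day 3 among members with a window and a body of at least 5 kb.
Zfp770: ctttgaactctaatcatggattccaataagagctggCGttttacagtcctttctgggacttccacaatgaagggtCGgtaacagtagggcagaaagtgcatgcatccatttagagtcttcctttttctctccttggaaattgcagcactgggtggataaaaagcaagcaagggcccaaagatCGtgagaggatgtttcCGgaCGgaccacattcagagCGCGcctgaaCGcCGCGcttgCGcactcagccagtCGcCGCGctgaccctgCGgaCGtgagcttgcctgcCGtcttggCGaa
Zfp280d: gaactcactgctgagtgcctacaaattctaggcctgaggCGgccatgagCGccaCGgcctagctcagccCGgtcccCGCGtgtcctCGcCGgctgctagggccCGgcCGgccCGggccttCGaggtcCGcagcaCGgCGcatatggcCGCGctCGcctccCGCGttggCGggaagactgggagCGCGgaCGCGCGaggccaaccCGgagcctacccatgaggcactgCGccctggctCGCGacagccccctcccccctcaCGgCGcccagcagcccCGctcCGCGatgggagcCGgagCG
Zfp281: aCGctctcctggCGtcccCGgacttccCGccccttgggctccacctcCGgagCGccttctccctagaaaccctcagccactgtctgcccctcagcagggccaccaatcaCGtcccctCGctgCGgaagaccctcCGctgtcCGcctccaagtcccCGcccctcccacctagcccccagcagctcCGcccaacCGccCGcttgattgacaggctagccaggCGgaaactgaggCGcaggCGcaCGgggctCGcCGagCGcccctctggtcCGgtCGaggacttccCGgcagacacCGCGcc

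These 3 windows held 18, 37 and 27 CpG dinucleotides. The 4 windows that touched an island held 6 in Zfp873, 7 in Zfp217, 21 in Zfp691 and 7 in Zfp945. The nearest day 3 island began 0.183 kb from the Zfp770 window, 2.25 kb from that of Zfp281 and 17.4 kb from that of Zfp280d. Over the 132 members the median window held 17 CpG dinucleotides, against 11 in clustered Zfp genes and 14 in all protein-coding genes, and its GC content was 58.5%, against 53.2% and 56.7%. Windows with at least 10 CpG dinucleotides made up 72.0% of those of the solitary genes, 60.9% of those of the clustered genes and 58.6% of all. Of the 95 members with at least 10, 38 had an island in the body on day 3 and 27 on day 0. None of these windows touched an island on day 3, and 1 (Zfp691) did on day 0. Of the 37 members with fewer, 10 had an island in the body on day 3 and 7 on day 0, so body islands were found in both classes.

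An island lay in the body of 62 of the 164 solitary Zfp genes on day 3 (37.8%, interval 30.4 to 45.7) and of 49 on day 0 (29.9%, interval 23.0 to 37.5). Among all protein-coding genes the share was 28.7% on day 3 and 24% on day 0. Islands were present on both days in 35 members, or 21.3% (16.8% of all genes), on day 3 only in 27, or 16.5% (11.9% of all), and on day 0 only in 14, or 8.54% (7.14% of all). The remaining 88 had none on either day. On day 3 these genes were covered over 911.8 kb, or 11.2% of their summed length, and on day 0 over 440.4 kb, or 5.41%. For all protein-coding genes the shares of bases were 9.46% and 5.11%. The order of the days in counts of genes depended on the islands counted. When only the 19989 day 3 islands richest in reads were kept, as many as were listed for day 0, 17 members had an island on day 3 only and 27 on day 0 only, and 39 in all had one on day 3. The share of all protein-coding genes was not computed with this shorter list. The changed order of the days therefore cannot be read as particular to these genes.

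**Figure D1:**
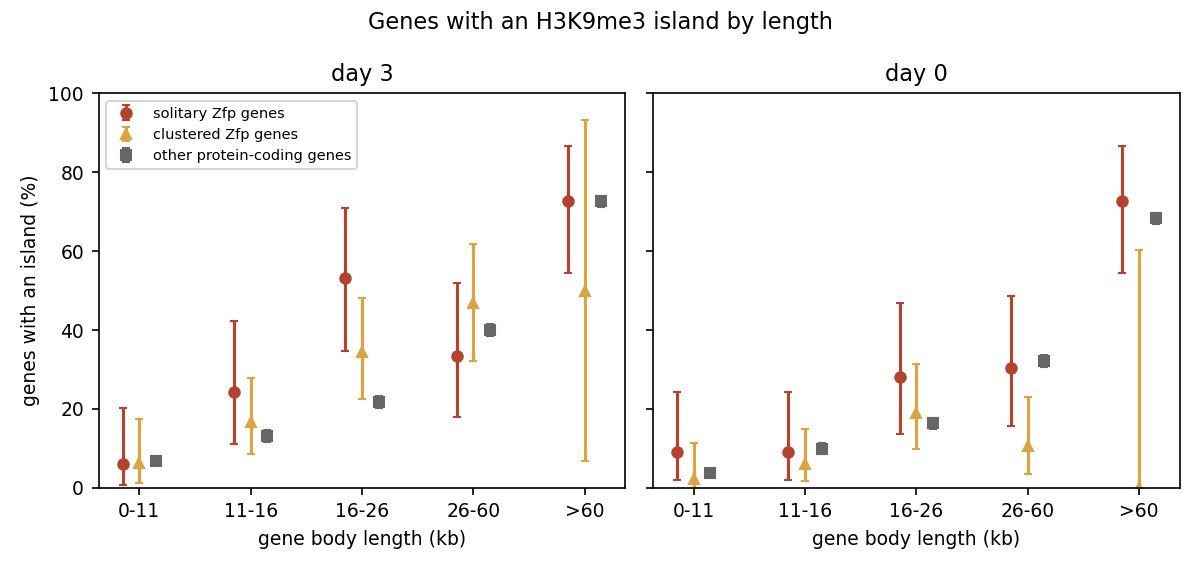
Share of genes with at least 1 bp of the body in an H3K9me3 island (y axis, percent) in 5 classes of body length (x axis, kb), on day 3 (left) and day 0 (right), for solitary Zfp genes, clustered Zfp genes and other protein-coding genes; bars are exact 95% binomial intervals. In the class from 16.4 to 26.4 kb on day 3 the solitary genes stand at 53.1% and the other genes at 21.8%; in the longest class both stand at 72.7%.

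Much of the level followed gene length. The members ran from 2.29 to 575.3 kb with a median of 20.4 kb, against 15.8 kb in clustered Zfp genes and 17.5 kb in all protein-coding genes. When the shares of other protein-coding genes in the same 5 length classes were weighted to the members, they gave 50.8 genes (30.9%) for day 3, where 62 were counted, and 42.9 (26.2%) for day 0, where 49 were counted. Both weighted shares lay inside the interval of the members' share. Lengths were not matched further inside a class. In the shortest, the median body was 7.82 kb in members and 4.14 kb in other genes. From 26.4 to 59.6 kb it was 32.7 and 38.2 kb. The classes differed among themselves. In the shortest class, up to 11.2 kb, 2 of 33 members had an island on day 3 (6.06%, other genes 6.91%) and 3 on day 0 (9.09%, other genes 3.84%). From 11.2 to 16.4 kb there were 8 of 33 on day 3 (24.2%, other genes 13.1%) and 3 on day 0 (9.09%, other genes 9.91%). From 26.4 to 59.6 kb there were 11 of 33 on day 3 (33.3%, other genes 40.0%) and 10 on day 0 (30.3%, other genes 32.1%). Above 59.6 kb there were 24 of 33 on each day (72.7%, other genes 72.7% and 68.4%).

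The middle class, from 16.4 to 26.4 kb, stood highest above other genes of its length, and was singled out after its values were seen. An island was present in 17 of 32 members on day 3 (53.1%, interval 34.7 to 70.9) and in 9 on day 0 (28.1%, interval 13.7 to 46.7). Other protein-coding genes of this length had one in 21.8% on day 3 and 16.4% on day 0, and of 58 clustered Zfp genes 20 and 11 did. Members of the class with much coverage on day 3, named after their values were seen, were Zfp518a (13.1 kb on day 3 and 15.6 kb on day 0), Zfp40 (10.5 kb and none), Zfp160 (9.60 kb and none), Zfp715 (8.28 kb and none), Zfp735 (8.01 kb and none) and Zfp788 (7.28 kb and none). Except in Zfp518a these were islands of day 3 only. Members of the class with day 0 islands only were Zfp142 (3.8 kb), Zfp367 (5 kb) and Zfp945 (0.509 kb). Without members that have a Gm or Rik protein-coding gene within 100 kb, 10 of 23 (43.5%) had an island on day 3, against 6 on day 0. With the reduced day 3 list 9 of the 32 had an island on day 3 (28.1%), as had 317 of 2647 other genes.

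Clustered Zfp genes differed most from the solitary ones on day 0. An island was present in 58 of the 222 clustered genes on day 3 (26.1%, interval 20.5 to 32.4) and in 21 on day 0 (9.46%, interval 5.95 to 14.1). The intervals of solitary and clustered genes overlapped on day 3 and did not on day 0, but these shares are not matched for length. Of the 49 solitary genes with an island on day 0, 24 were longer than 59.6 kb, against 0 of the 21 clustered ones. Other protein-coding genes of the same length classes gave 46.2 genes for day 3 and 35.7 for day 0. The clustered count was thus above this value on day 3 and below it on day 0. The solitary counts were above on both days. With clustered Zfp genes in place of the other genes, the solitary classes gave 50.6 genes for day 3 and 12.3 for day 0, against 62 and 49 counted, but the longest class holds only 4 clustered genes. On day 3 the clustered share by class, from the shortest, was 6.38, 16.7, 34.5, 46.8 and 50%. The solitary share was 6.06, 24.2, 53.1, 33.3 and 72.7%, so the order of the sets was not the same in all classes. Clustered genes were covered over 5.10% of their bases on day 3 and 1.90% on day 0. Neighbouring genes are not independent, and the difference between the sets was not tested.

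Taken over all bases, coverage in solitary Zfp genes was higher inside the body than around it. On day 3 it was 11.2% in the bodies, 5.82% in the 5 kb on either side and 4.55% in the 100 kb on either side, and on day 0 it was 5.41%, 3.14% and 3.6%. The ratio of the bodies to the 100 kb on either side was thus 2.46 on day 3 and 1.5 on day 0. In all protein-coding genes it was 1.68 and 1.27, and in clustered Zfp genes 1.16 and 0.707. Long genes weigh more in the body share, while the sides have the same length for every gene. The ratio therefore does not set each gene against its own sides. Gene by gene the picture was mixed, because most members had no island. On day 3 the body was covered more than its own 100 kb sides in 53 members and less in 70, and on day 0 in 42 and 76. In 61 members on day 3 and 69 on day 0, islands lay within 100 kb but not in the body. These gene-by-gene counts were made for the members only, so they cannot be set against genes at large. Of the 204 islands that touched a member on day 3, 185 lay wholly inside it, and of the 95 on day 0, 83 did. Bases shared with another annotated gene made up 3.53% of the covered bases on day 3 and 4.35% on day 0.

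**Figure D2:**
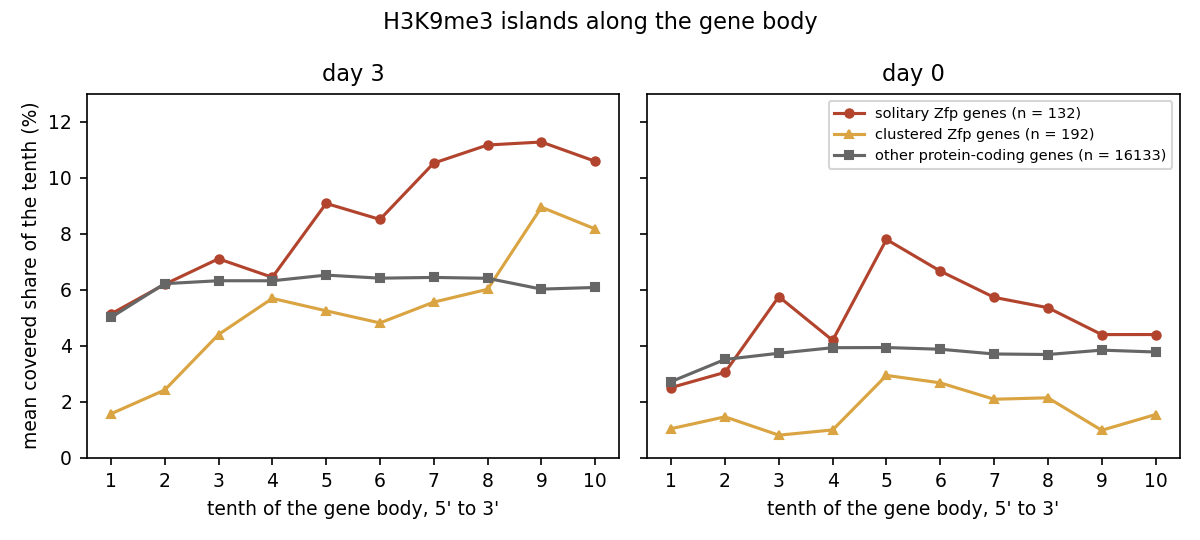
Mean covered share (y axis, percent) of each of 10 equal parts of the gene body from its 5′ to its 3′ end (x axis) on day 3 (left) and day 0 (right), for solitary Zfp genes, clustered Zfp genes and other protein-coding genes with known strand. On day 3 the line of the solitary genes stands at 5.13% in the first part and 10.6% in the last, and that of other genes at 5.01% and 6.08%.

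Along the body, the day 3 islands of solitary Zfp genes leaned to the 3′ side. In the 132 members with known strand the body was cut into 10 equal parts. On day 3 the mean covered share was 5.13% in the first, between 6.19 and 9.08% in the second to sixth, and between 10.5 and 11.3% in the seventh to last. On day 0 it was 2.51% in the first part, highest in the fifth with 7.79%, and 4.40% in the last. Other protein-coding genes were also lowest in the first part, at 5.01% on day 3 and 2.72% on day 0. From the second part on they stayed between 6.02 and 6.52% on day 3 and between 3.51 and 3.94% on day 0. Their last part stood at 6.08% and 3.78%. Clustered Zfp genes stood at 1.57% in the first part and 8.17% in the last on day 3, and at 1.04% and 1.54% on day 0. The 3′ side of the body, past its midpoint, held 58.1% of the covered bases of solitary genes on day 3 and 44.2% on day 0, and 48.8% and 51.0% of those of other genes. Of 48 members with an island and known strand on day 3, 29 had more covered bases on the 3′ side, 18 on the 5′ side and 1 as many in each. Of 52 clustered Zfp genes 36 had more on the 3′ side and 15 on the 5′ side, and of 4597 other genes 2254 and 2289. On day 0 the 34 solitary genes were split 17 to 17. The 3′ side held 65.5% of the covered bases of clustered Zfp genes on day 3 and 56.3% on day 0, above the shares of the solitary ones. Without Zfp800, Zfp385b and Zfp280d, the 3 of known strand with the most covered bases on day 0, the day 0 share was 49.2%. Without the 3 of known strand that were highest on day 3 (Zfp804b, Zfp280d and Zfp800), the day 3 share was 60.0%. The tilt was not tested.

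**Figure D3:**
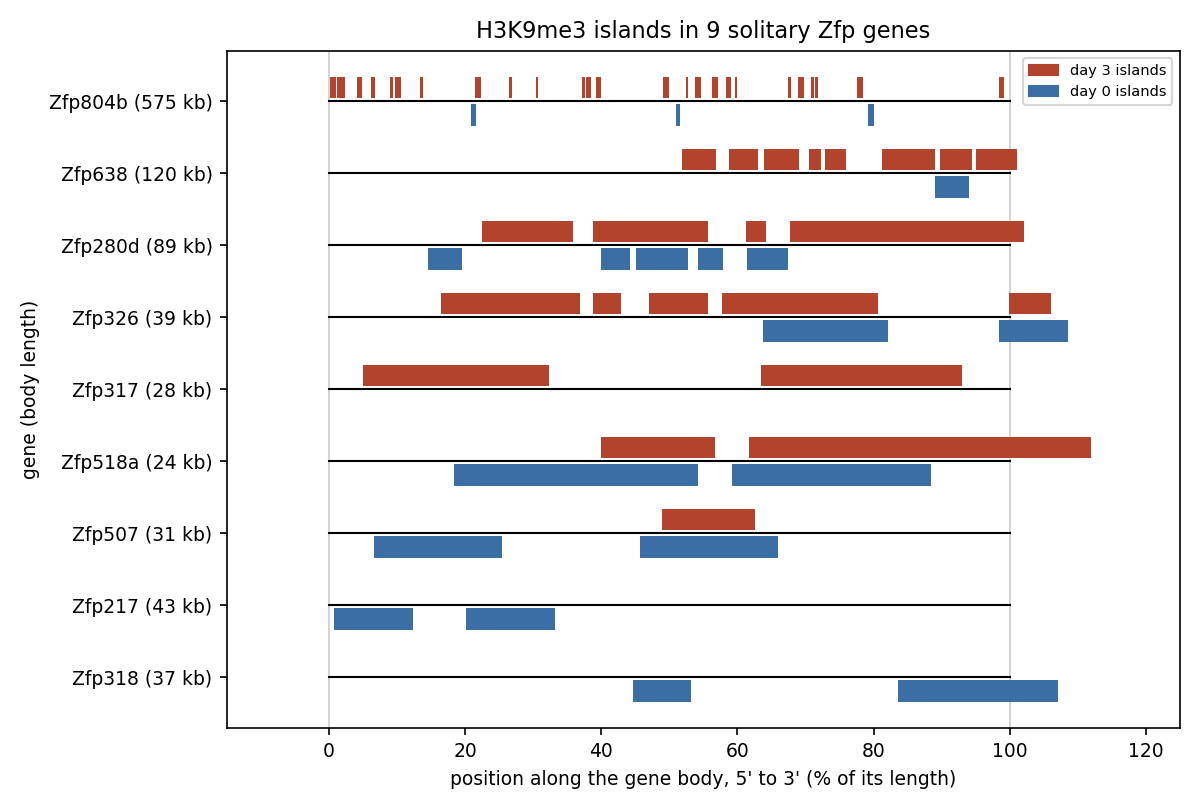
Islands of day 3 (above each line) and day 0 (below each line) in 9 solitary Zfp genes, by position along the gene body from the 5′ to the 3′ end (x axis, percent of its length; genes on the y axis with body length). In Zfp638 all 8 day 3 islands lie past the midpoint, in Zfp280d the longest reaches 30.6 kb at the 3′ end, and Zfp217 and Zfp318 have islands on day 0 only.

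A few long genes held most of the coverage. The 10 members with the most covered bases held 60.2% of it on day 3 and 52.0% on day 0. Zfp407 (mm10 chromosome 18, 84207701 to 84589539), a many-fingered protein studied in fat cells, had 114.0 kb of its body (29.9%) in 23 islands on day 3, against 42.8 kb (11.2%) in 8 islands on day 0. Only 6.60 kb were common to both days. Zfp804b (chromosome 5, 6769030 to 7344378) had 94.0 kb in 25 islands on day 3, against 12 kb in 3 islands on day 0, with 0.4 kb in common. Zfp804a (chromosome 2, 82050129 to 82259879), whose human counterpart is known from genetic association with schizophrenia, had 50.8 kb in islands on day 3, against 16.2 kb on day 0. Here 9.6 kb of the 16.2 kb were also covered on day 3.

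The other large day 3 excesses were in genes of 71.6 to 187.5 kb. Zfp638 (chromosome 6, 83867068 to 83986871), a nuclear protein that in human cells works with the HUSH complex to silence unintegrated retroviral DNA, had 43.9 kb in 8 islands on day 3, against 6 kb in 1 island on day 0. Its day 3 islands ran from 54.4% to 98.1% of the body by their centres. Zfp277 (chromosome 12, 40315046 to 40445790) was covered over 42.6 kb on day 3, of which 11200 bp also lie in the predicted gene Gm40406, and 5.6 kb on day 0, with no base in common. Zfp280d (chromosome 9, 72274618 to 72363779) was covered over 58.4 kb or 65.5% on day 3 and 23.6 kb or 26.5% on day 0. Its longest day 3 island (72335001 to 72365600) held 1771 reads (interval 1689 to 1855), and was the longest island in any member. Zfp800 had 51.9 kb covered on day 3, against 26.6 kb on day 0, and Zfp654 30.3 kb against 9.8 kb. Zfp644 (chromosome 5, 106616739 to 106696834), which partners the H3K9 methyltransferases G9a and GLP, had 26.1 kb in islands on day 3, against 9.2 kb on day 0, with no base in common. Zfp292 (chromosome 4, 34803110 to 34882983), whose human counterpart is mutated in a neurodevelopmental disorder, was covered over 21.1 kb by 5 islands with 1088 reads on day 3 and had none on day 0.

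**Figure D4:**
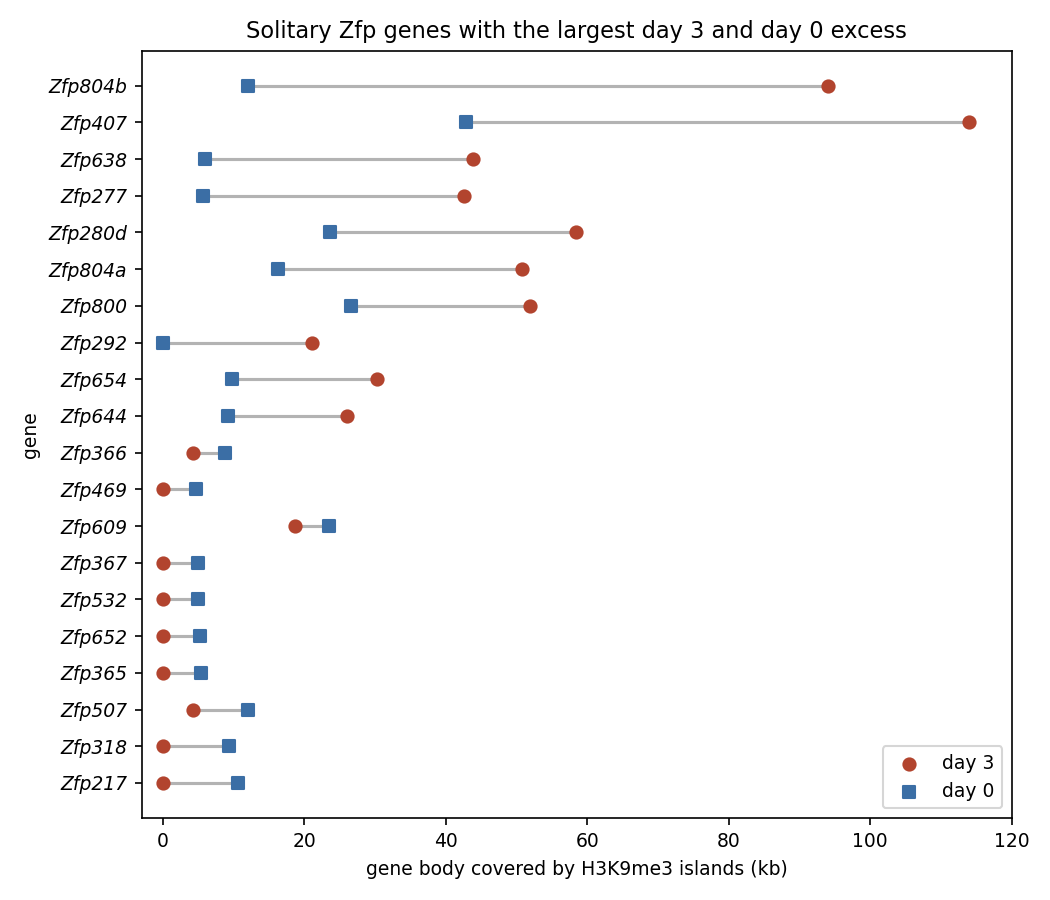
Covered length of the gene body (x axis, kb) on day 3 (circles) and day 0 (squares) for the 10 solitary Zfp genes with the largest excess on day 3 and the 10 with the largest excess on day 0 (y axis), 1 library per day. Zfp407 reaches 114.0 kb on day 3; the day 0 excesses at the bottom do not go beyond 10.6 kb.

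Excesses on day 0 were smaller. More bases were covered on day 0 in 27 members, or 16.5% (12.8% of all genes), and on day 3 in 49, or 29.9% (22.8% of all genes). Zfp217 (chromosome 2, 170108643 to 170151677), known in humans as an oncogene amplified in breast cancer, had no island on day 3 and 2 on day 0 over 10.6 kb, with 197 reads (interval 170 to 227) and 152 reads (interval 129 to 178). The 2 islands held 35.2 and 30.4 reads per kb, the second below every day 3 island. The first held the promoter window shown above, which lies inside the body and not at its outer 5′ end. Zfp318 (chromosome 17, 46383515 to 46420920), which mature B cells need to make IgD, had no island on day 3 and 2 over 9.32 kb on day 0. The denser of these held 40.6 reads per kb, above the day 3 minimum of 34.1. The other, over 6120 bp of the body, held 32.7 reads per kb, below that minimum. Zfp507 had 4.2 kb covered on day 3, against 12 kb on day 0, and its day 3 island lay wholly inside a day 0 one. Zfp365 (5.4 kb), Zfp652 (5.2 kb), Zfp367 (5 kb), Zfp532 (5 kb) and Zfp469 (4.68 kb), the last known in humans from brittle cornea syndrome, had islands on day 0 only. Zfp609 had 18.6 kb covered on day 3, against 23.4 kb on day 0, and Zfp366, a transcriptional regulator of dendritic cells, 4.2 kb against 8.8 kb. When only day 0 islands of at least 34.1 reads per kb were counted, the difference changed sign in Zfp507, Zfp609 and Zfp366. Of the 14 members with day 0 islands only, 5 (Zfp365, Zfp469, Zfp532, Zfp661 and Zfp691) had no island as dense as that.

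Coverage over at least 50% of the body was reached by 7 members on day 3, or 4.27% (2.38% of all genes), and by 3 on day 0, or 1.83% (0.861% of all genes). On day 3 these were Zfp770 (67.0% on day 3, none on day 0), Zfp280d (65.5% and 26.5%), Zfp281 (58.1% and 54.5%), Zfp317 (57.0% and none), Zfp326 (56.1% and 19.9%), Zfp518a (55.0% and 65.2%) and Zfp40 (54.2% and none). On day 0 they were Zfp691 (none on day 3, 72.5% on day 0), whose body is 4.68 kb long, with Zfp518a and Zfp281. In Zfp518a the sign of the difference turned when only day 0 islands of at least 34.1 reads per kb were counted. Zfp281 (chromosome 1, 136624901 to 136630391), a factor that binds GC-rich DNA in embryonic stem cells, had 1 island on each day. It held 388 reads on day 3 (interval 350 to 429; 58.8 reads per kb) and 325 on day 0 (interval 291 to 362; 36.9 reads per kb). Both began inside the gene and ended beyond its 3′ end. Zfp326, a factor that couples splicing to transcription, had 5 islands on day 3 and 2 on day 0, with 6.62 kb in common. Zfp629 (33.9%) and Zfp652 (33.2%) had high shares on day 0 and no island on day 3. Zfp867 was covered over 22.9% on day 3 and 21.2% on day 0, with no base in common, and 1775 of its covered bases on day 0 also lie in Jmjd4. With the reduced day 3 list its difference changed sign.

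Among the 11 members on a list of genes linked to lymphocytes, 8 had an island on day 3, against 7 on day 0, with medians of 5.8 and 4.8 kb covered. Among all protein-coding genes 28.7% had one on day 3 and 24% on day 0, and other genes of the same length classes would give 5.01 and 4.46 of the 11. The lists were drawn up with earlier results of these data known, and their counts are descriptions. Besides Zfp407, Zfp292, Zfp609, Zfp318 and Zfp281, those with an island were Zfp148 (11.6 kb on day 3 and 5.30 kb on day 0), Zfp91 (7.26 and 5 kb), Zfp131 (5 and 4.8 kb) and Zfp608 (5.80 kb and none). Zfp608, studied in thymocytes as a repressor of the Rag genes, had a single island on day 3 with 306 reads. Zfp91 is a ubiquitin ligase of the alternative NF-kappa B pathway, and its islands of the 2 days shared no base. All of its covered bases also lie in a neighbouring gene (Gm44505 or Lpxn), and with the reduced day 3 list the difference changed sign. Zfp36, which encodes tristetraprolin, a protein that speeds the decay of cytokine mRNAs, and Zfp335, a factor needed for T cell maturation in the thymus, had no island on either day. Their bodies are 2.45 and 20.7 kb long.

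Of 14 members on a list of genes of development and neurons, 8 had an island on day 3, against 7 on day 0. Of the 14, 10 were longer than 59.6 kb, and other genes of the same length classes would give 7.76 on day 3 and 7.18 on day 0, close to the counts. Besides Zfp804a and Zfp804b they included Zfp521, a cofactor in blood stem cells and B cell progenitors (30.4 kb on day 3, against 22.2 kb on day 0), and Zfp385b (29.2 and 24.6 kb, no base in common). Zfp536, a repressor of neuronal differentiation (7.80 and 6.00 kb), Zfp704 (5.80 and 7.60 kb), and Zfp423, a partner of Ebf1 (2.80 and 4.60 kb), were covered over less than 5% of bodies of 183.1 to 456.0 kb. The sign of the difference turned in Zfp521, Zfp385b and Zfp536 with the reduced day 3 list, and in Zfp704 and Zfp423 when only day 0 islands of at least 34.1 reads per kb were counted. Zfp827 had 9.2 kb covered on day 3 and none on day 0. Zfp462, Zfp503, Zfp516, Zfp703, Zfp488 and Zfp385a had none on either day. Zfp462 (139.1 kb), Zfp516 (95.6 kb), Zfp936 (77.9 kb) and Zfp710 (67.9 kb) were the longest members with no island.

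Of 7 members on a list of germ cell and pluripotency genes, all between 3.37 and 34.6 kb long, 1 had an island on each day. Other genes of the same length classes would give 1.09 on day 3 and 0.798 on day 0. Zfp37, a gene of male germ cells, had an island on both days (2.4 kb on day 3 and 3.6 kb on day 0). Zfp42 (Rex1), Zfp541, Zfp352, Zfp296, Zfp706 and Zfp322a had none. Zfp57, which protects imprinted marks in the early embryo and was the only solitary gene on a list of 11 Zfp genes of imprints and retroelements, had none either. In the Trim28 pathway, 4 of 15 genes had an island on day 3 (Setdb1, Atf7ip, Hdac2 and Smarcad1) and 3 on day 0 (Setdb1, Atf7ip and Cbx5), where other genes of the same length classes would give 5.18 and 4.28.

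Islands in solitary Zfp genes were close in length and density to islands elsewhere. Their median length was 3.90 kb on day 3 and 4.80 kb on day 0, against 3.6 and 4.8 kb for all islands. At the median they held 53.1 reads per kb on day 3, against 33.3 on day 0, and all islands 52.9 against 34.1. Over 39 overlapping pairs the density ratio of day 3 to day 0 islands, not corrected for depth, had a median of 1.60 (quartiles 1.48 and 1.72), against 1.57 (1.43 and 1.72) in 7306 pairs over the genome. Of the bases covered in these genes, 11.2% of those of day 3 were also covered on day 0, and 23.2% of those of day 0 were also covered on day 3. In all protein-coding genes the shares were 12.6% and 23.4%. In 24 of the 35 members with islands on both days (68.6%), some bases were common, as they were in 2107 of 3481 protein-coding genes (60.5%).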

How the data were processed

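Native ChIP-seq of H3K9me3 in CD8+ T cells gave 1 ChIP library per day. Per the submitters' processing notes, the tools were Bowtie2 and SICER (1.1) with build mm10. Threshold, gap size, duplicate treatment and any use of the input: not given in the sources used here. Each island in the deposited lists carries 1 whole number, read here as the authors' raw count of ChIP reads. These deposited counts are not scaled for depth, length or input. The labels give a nominal sequencing depth, the same for all samples, and the mapped total of each library is not used here. All island borders fell on multiples of 200 bp.

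Gene bodies came from a RefSeq table of GRCm38.p6. Strand came from the promoter table, which matched 132 of 164 members. Coverage was computed in Python 3.11.15 with numpy 2.4.6 and pandas 2.3.3 and checked on simulated islands. Length classes were quintiles of the members' lengths. A planned grouping by fingers and KRAB motifs in the proteins was not made, since no protein sequence was used here. Alternatives varied the islands counted, the overlap, the distance, the symbols and the length classes.

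Named genes were the members with the 10 largest excesses of covered bases on each day, the 6 highest covered shares per day and 4 highest on both (body of at least 5 kb), the 4 longest without islands, and members of 4 lists. The rule for members uses no measured value, but members and lists were chosen with earlier results of these data known.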

Additional observations from a re-analysis of the deposited data

How the results depend on the processing

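No paired analysis was possible because each day has 1 library and nothing was tested. With the day 3 list reduced to 19989 islands, members with an island on day 3 fell to 39, day 3 only to 17, with 27 on day 0 only. Under the same setting 32 clustered genes and 9 members of the middle class had an island on day 3. Covered length was then 633.3 kb, the body-to-flank ratio 3.09, the 3′ share 59.8%, and 0 promoters were touched. With islands of at least the median density of their list, the count of members was 38 for day 3 and 29 for day 0, that of clustered genes 35 and 9, and that of the middle class 8 for day 3. Covered length was 407.6 and 171.6 kb, the body-to-flank ratio 2.57 and 1.45, the 3′ share 62.6% and 37.6%, and 0 promoters were touched on day 3. With the least dense day 3 island as the limit, day 0 gave 29 members, 9 clustered genes, 171.6 kb, a ratio of 1.45 and a 3′ share of 37.6%, with 42 members on day 3 only and 9 on day 0 only. Asking for 10% of the body left 30 members on day 0. Shares of all protein-coding genes with an island were not computed under these settings. Chosen after seeing the data, leaving out members with Gm or Rik neighbours gave 10 of the middle class on day 3, and leaving out the 3 most covered members of known strand, a different 3 on each day, gave 3′ shares of 60.0% and 49.2%.

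The ratio of members with an island to the count from the same length classes ran from 1.06 to 1.22 on day 3 and from 1.07 to 1.14 on day 0 over the selections of islands, 10 classes in place of 5, and other protein-coding genes without olfactory and vomeronasal receptor, protocadherin, Gm and Rik symbols. Of 38 named members with a difference between days, 33, 25 and 29 kept its sign under the 3 selections of islands. It reversed with the reduced list in Zfp385b (-8.40 kb, day 3 less day 0), Zfp536 (-6.00), Zfp867 (-2.40), Zfp91 (-2.34) and Zfp521 (-1.80). It reversed with the median density in Zfp385b (-8.00), Zfp521 (-2.00) and Zfp518a (4.55). It reversed with the day 3 minimum density in Zfp704 (2.80), Zfp507 (4.20), Zfp423 (2.80), Zfp609 (0.8), Zfp366 (0.8) and Zfp518a (4.55). The cause of these reversals was not tested.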

Other observations

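Some members had no island in the body but one within 5 kb of it, which was not counted for all protein-coding genes. On day 3 there were 12 of these (Zfp11, Zfp189, Zfp219, Zfp386, Zfp39, Zfp467, Zfp503, Zfp513, Zfp641, Zfp750, Zfp830 and Zfp945), and on day 0 there were 3 (Zfp648, Zfp821 and Zfp938). Zfp945 had its day 0 island over the promoter and a day 3 island 3.42 kb from that window, which overlaps the day 0 one.

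Members with islands were found on every autosome from 1 to 19. The counts per chromosome are small and were not matched for gene length. On chromosome 18, 6 of 8 had an island on each day, where 49.5% of all protein-coding genes had one on day 3 and 38.6% on day 0. Its members include long genes such as Zfp407 (381.8 kb) and Zfp521 (285.7 kb). On chromosome 7, 5 of 17 had one on day 3 and 3 on day 0, against 15.7% and 13.8% of all genes there. Both members of chromosome 16 had an island on each day, against 38.0% and 29.9% of all genes there, and so had all 3 of chromosome 19, against 27.0% and 21.4%. On chromosome 14 none of 5 had one on day 3 and 1 did on day 0, against 27.5% and 25% of all genes. Chromosome 2 had 3 of 16 on day 3 and 5 on day 0, against 30.8% and 25.5%. Chromosome 15 had 1 of 6 on day 3 and 0 on day 0, against 24.4% and 19.6%.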
